A study of Mus musculus with 8 samples.

Results

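The levels of transcripts in AML12 cells at 24 h were compared with those at 3 h. AML12 is a line of cultured mouse hepatocytes. Of the 8 arrays in the series, 4 hold AML12 cells without v-erbA, chosen by sample title. They are untreated cells at 3 h, cells given 1 µM retinoic acid (RA) for 3 h, untreated cells at 24 h and cells given 1 µM RA for 24 h. Each combination was measured on 1 array, so that 24 h and 3 h were compared within 2 pairs, the untreated pair and the RA pair. The other 4 arrays hold AML12 cells transfected with v-erbA, a viral oncogenic form of a thyroid hormone receptor, at the same times and treatments and served as a second line for comparison. The sources do not say whether that line is 1 clone, or whether the arrays came from separate cultures. The descriptions of the AML12 RA sample of 24 h and of both v-erbA samples of 24 h name 3 h instead, and the titles were followed for all samples.

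AML12 cells divide in culture and keep the expression of many liver genes. In the cell cycle, replication genes act in S phase and mitosis genes in G2 and M phase. The transcription factor NF-kappaB drives genes of chemokines and adhesion receptors together with its own inhibitors. Genes of mature liver function, such as enzymes of the urea cycle, are typically higher in resting than in dividing hepatocytes. The labels do not say when cells were plated or fed. The titles give only 3 h and 24 h, and for treated cells these are the hours of RA.

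The arrays hold several probe sets for many genes, that is, groups of probes that each report 1 signal for a stretch of the transcript. Of the 10935 genes tested, 6040 had 1 probe set bright enough to test and 4895 had 2 or more. A gene was called higher or lower at 24 h if at least 2 of its probe sets passed an adjusted p under 0.05 in that direction (limma, Benjamini-Hochberg over 19169 probe sets) and none of its tested probe sets pointed the other way. Probe sets of a gene can overlap in sequence, so they are not independent measurements. Differences are 24 h minus 3 h on the scale log2(signal + 19.9 units), averaged over the 2 pairs, and understate the change of dim genes.

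Most time differences were modest. Of the 19169 probe sets 3191 (16.6%) passed the threshold, 1557 (8.12%) higher and 1634 (8.52%) lower, and in 10759 (56.1%) the arrays of 24 h did not overlap those of 3 h. Of the 4895 genes, 354 (7.23%) were called: 159 (3.25%) were higher at 24 h and 195 (3.98%) were lower. The median size of the difference was 0.43 among the called genes and 0.12 among all 4895. Genes that fell included 6 of 13 mitosis genes and 7 of 19 DNA replication genes. Genes that rose included 5 of 9 inflammatory genes, the liver genes Otc and Fabp1, and Cd36. Of 8 genes of the hepatocyte list 0 were called. All tested probe sets had the same direction in the untreated pair and in the RA pair for 323 of the 354 called genes. The mean over a gene's probe sets reached 2-fold in 22 called genes, 13 higher and 9 lower, and every tested probe set reached 2-fold in 9, of which 6 were higher and 3 lower.

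**Figure D1:**
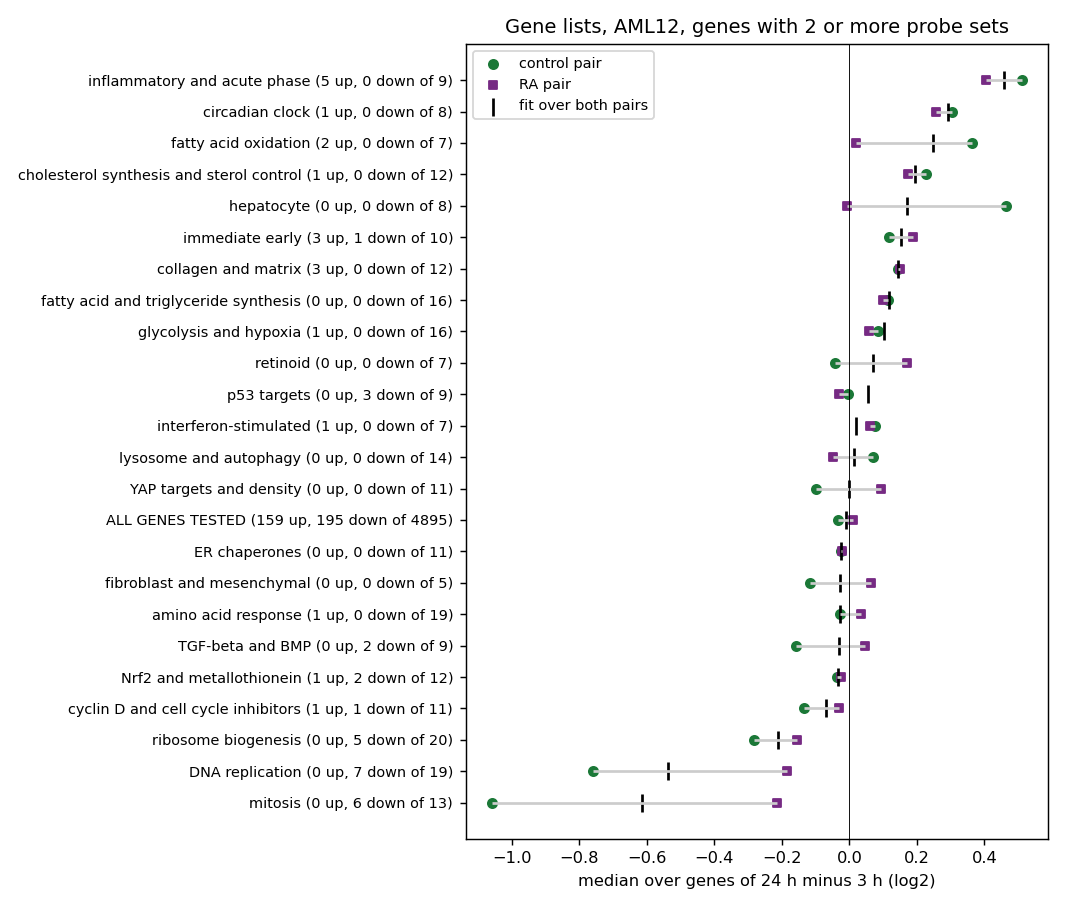
Median difference over the members of each gene list with 2 or more tested probe sets, 24 h minus 3 h in AML12 (log2), for the untreated pair (green circles), the RA pair (purple squares) and the fit over both pairs (black ticks). The counts of called genes stand beside each list. The mitosis and DNA replication lists lie lowest, at -0.61 and -0.54 in the fit, and the untreated pair lies farther from 0 than the RA pair in both. The inflammatory list lies highest, at 0.46.

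Several mitosis genes fell, and their lowest array was the untreated one of 24 h. Of 13 list members with 2 or more tested probe sets, 6 were called lower and 0 higher, and the median difference was -0.61, against -0.01 over all genes, of which 3.98% were called lower. Cdc20, the activator of the anaphase-promoting complex, had signals of 967 units in untreated cells and 982 under RA at 3 h, and of 336 untreated and 636 under RA at 24 h (probe set 1416664_at). Both arrays of 24 h lay below both of 3 h, and the untreated array of 24 h stood far below the RA array. The 3 probe sets of Cdc20 differed by -0.91 to -1.10, and that probe set by -1.04 ± 0.17 (SE, adjusted p = 0.00523, limma).

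The cyclin Ccna2, which acts with cyclin-dependent kinases in S and G2 phase, had signals of 1239 and 1173 units at 3 h (untreated and RA) and of 408 and 801 units at 24 h (probe set 1417910_at). The order of the arrays was that of Cdc20. Its difference was -1.05 ± 0.19 (SE, adjusted p = 0.00809, limma), and -0.85 on its second probe set. Kif11, the kinesin that separates the spindle poles, had 313 and 302 units at 3 h and 94.0 and 186 units at 24 h (probe set 1452315_at), a difference of -1.10 ± 0.18 (SE, adjusted p = 0.00536, limma). Aurkb, the kinase of the chromosomal passenger complex, fell by 0.95 as a mean of 2 probe sets. Bub1b, a spindle checkpoint kinase, fell by 0.84, and Smc4, a condensin subunit, fell by 0.46. Ncapd2, another condensin subunit, was the only member of the 13 with a mean above 0, at 0.03, and was not called. The list's 18 members with a single tested probe set all passed downwards, with a median of -0.98, where 1059 of 6040 such genes (17.5%) passed in either direction. Mki67, a marker of cycling cells that is 1 of these 18, had 1932 and 1847 units at 3 h and 714 and 1572 units at 24 h, so its RA array of 24 h lay closer to the arrays of 3 h than to the untreated array of 24 h. Its difference was -0.82 (adjusted p = 0.0349, limma).

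Other genes of division that no list had placed in this group were among the 12 lowest called genes. Mean differences were -1.13 for Ska1 of the kinetochore, -1.12 for Cep55 of the midbody, -1.04 for the PP2A inhibitor Cip2a, -1.01 for the centrosome kinase Nek2 and -0.98 for the passenger protein Cdca8. Cep55 showed 1073 and 1114 units at 3 h and 362 and 810 units at 24 h (probe set 1452242_at). Lmnb1, the nuclear lamina protein lamin B1, differed from these genes in its pattern: it had 621 and 586 units at 3 h and 344 and 279 units at 24 h (probe set 1423521_at), so that the RA array was the lower of the 24 h arrays. Its mean difference was -0.98 over 2 probe sets.

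The promoters of Cdc20 and Kif11 are shown because many genes of late cell cycle carry a CCAAT box, bound by NF-Y, and a cell cycle homology element, whose core is TTTGAA. The 130 bases before each transcription start are given 5′ to 3′ in gene direction from RefSeq, GRCm38.p6, with CCAAT and TTTGAA on either strand in capitals.
Cdc20, chr4:118437344-118437473, minus strand: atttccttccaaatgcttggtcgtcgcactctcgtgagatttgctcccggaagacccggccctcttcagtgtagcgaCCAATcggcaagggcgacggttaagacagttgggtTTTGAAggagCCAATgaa
Kif11, chr19:37376252-37376381, plus strand: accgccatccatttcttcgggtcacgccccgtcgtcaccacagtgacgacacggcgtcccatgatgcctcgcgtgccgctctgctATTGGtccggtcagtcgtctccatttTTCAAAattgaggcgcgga
Among the called mitosis genes 3 had a promoter in the table, and all 3 held CCAAT within 250 bases before the start, while 2 held TTTGAA. The CCAAT box was present in all 6 called replication genes with a promoter, in 46.7% of the 195 windows of genes lower at 24 h, in 40.9% of the 198 windows of genes higher at 24 h and in 33.8% of all 32851 windows. TTTGAA was present in 14.4% of the windows of lower genes and in 16.0% of all windows. These are matches of letters and not measured binding.

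Several DNA replication genes also fell. Of 19 members with 2 or more tested probe sets, 7 were called lower and 0 higher, where 3.98% and 3.25% of all genes were. All probe sets lay below 0 in 18 of the 19, and in 1427 of all 4895 genes. The median difference was -0.54. Of the list's 11 members with a single tested probe set 4 passed downwards and 0 upwards, where 476 and 583 of 6040 such genes did. Their median was -0.35. Mcm5, a subunit of the replicative helicase, had 1270 and 1239 units at 3 h and 506 and 1027 units at 24 h (probe set 1436808_x_at). The untreated array of 24 h was again the lowest by far. The difference was -0.78 ± 0.20 (SE, adjusted p = 0.0303, limma). Mean differences were -0.61 for the helicase subunit Mcm4, -0.60 for the clamp loader subunit Rfc3, -0.60 and -0.57 for the ribonucleotide reductase subunits Rrm2 and Rrm1, -0.54 for the primase Prim1 and -0.33 for the helicase subunit Mcm6. Chaf1b, a histone chaperone of replication, had the lowest mean of the list at -0.84, but only 1 of its 2 probe sets passed. Ccne1, the cyclin of entry into S phase, had 1 probe set that passed upwards and 1 that passed downwards.

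The fall of both lists was uneven between the pairs. The median mitosis difference was -1.06 in the untreated pair and -0.21 in the RA pair, and the median replication difference was -0.76 and -0.19. Without either untreated array, which leaves the RA pair alone, 3 mitosis genes and 2 replication genes were called lower. Without either RA array 10 and 15 were called. In the v-erbA line the median mitosis differences were -0.75 in the untreated pair and -0.54 under RA. With 1 array per combination, a difference between the pairs cannot be told apart from the untreated AML12 array of 24 h, and it was not tested. The mitosis count fell to 2 and the replication count to 1 in a fit without a mean-variance trend, and to 3 and 4 without the probe set kinds _s_at and _x_at, which can match several transcripts. The replication count rose to 11 with each array centred on its median.

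**Figure D2:**
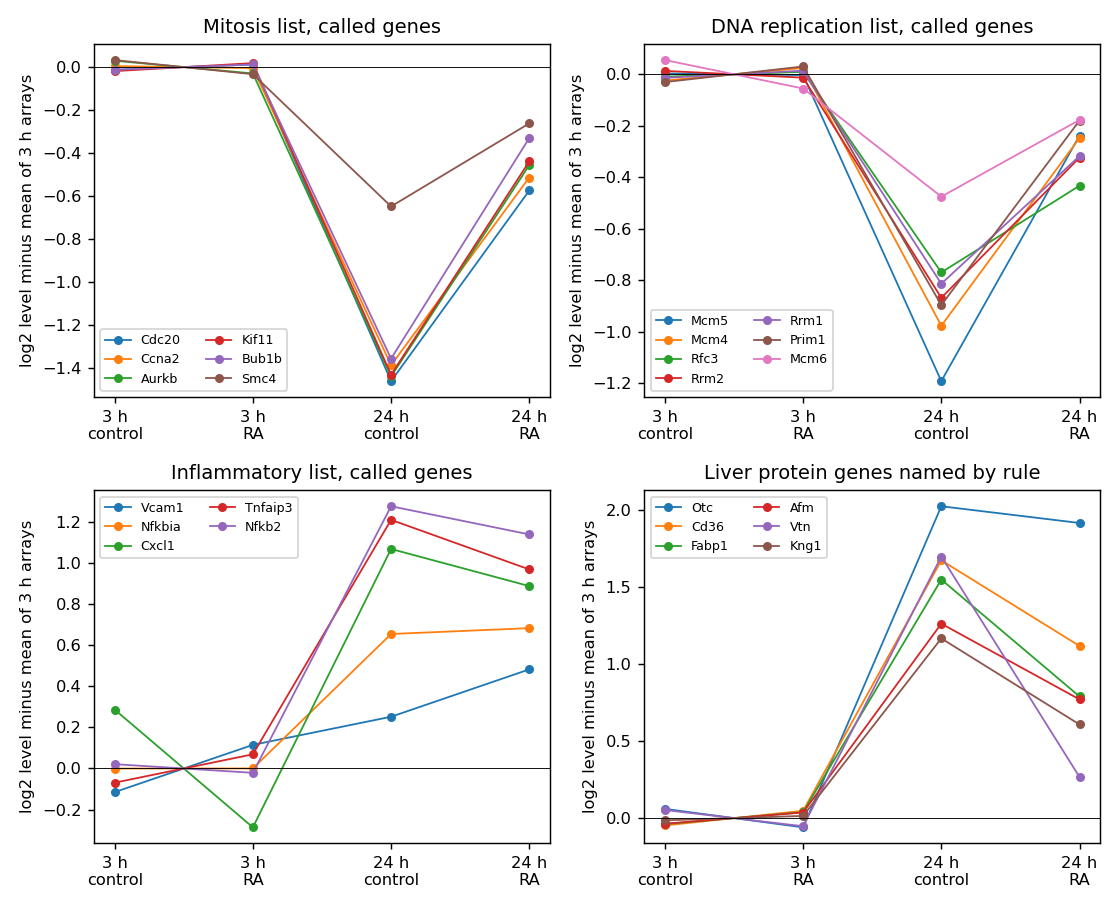
Log2 level of called genes on each of the 4 AML12 arrays, as the mean over the gene's tested probe sets minus the mean of the arrays of 3 h. Lines join the values of a gene and do not follow a culture. Mitosis and replication genes lie lowest on the untreated array of 24 h. The inflammatory genes lie above 0 on both arrays of 24 h, as do the 6 genes of the panel of liver protein genes, Cd36 among them.

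Genes of ribosome biogenesis supply the machinery for rRNA processing in growing cells. Of 20 members, 5 were called lower and 0 higher, where 3.98% and 3.25% of all genes were, and the median was -0.21. Nop56, a core protein of box C/D snoRNPs, had 1168 and 1126 units at 3 h and 824 and 858 units at 24 h (probe set 1426533_at). Both arrays of 24 h were alike in this gene. Its difference was -0.44 ± 0.07 (SE, adjusted p = 0.00371, limma). The others called were nucleolin (Ncl, -0.38), the H/ACA proteins Nhp2 (-0.33) and Dkc1 (-0.29) and Nolc1 (-0.29). In the fit without a mean-variance trend 0 of the 20 were called, 1 was called without either untreated array, and 2 were called in the fit of the 4 AML12 arrays alone.

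Several inflammatory genes rose. Of 9 members of the inflammatory and acute phase list with 2 or more probe sets, 5 were called higher, where 3.25% of all genes were, and 0 lower, and the median was 0.46. The median was 0.51 in the untreated pair and 0.40 in the RA pair. Tnfaip3, the ubiquitin-editing inhibitor of NF-kappaB signalling also called A20, had 720 and 789 units at 3 h and 1638 and 1448 units at 24 h (probe set 1433699_at). The arrays of 24 h were close to each other and well apart from those of 3 h. The difference was 1.01 ± 0.09 (SE, adjusted p = 0.000175, limma), and 1.16 on the second probe set. Nfkbia, the inhibitor that retains NF-kappaB in the cytoplasm, was higher on all 5 of its probe sets, by 0.52 to 0.81. On probe set 1448306_at its signals were 1084 and 1094 units at 3 h and 1972 and 1834 units at 24 h. Nfkb2, the precursor of the p52 subunit, had 388 and 378 units at 3 h and 596 and 568 units at 24 h on its brighter probe set, a difference of 0.58 ± 0.08 (SE, adjusted p = 0.00184, limma). Its dimmer probe set gave 1.83, so the size of its change is uncertain.

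Cxcl1, a chemokine that draws neutrophils, had 1039 and 709 units at 3 h and 1829 and 1591 units at 24 h (probe set 1457644_s_at). Its 3 probe sets rose by 0.93 to 1.02. The RA array was the lower of the 3 h arrays in all 3. Vcam1, an adhesion receptor for leukocytes, rose by 0.40 and 0.44 on 2 probe sets, and the third gave 0.26 with an adjusted p of 0.0534 (limma). Outside the list, another inhibitor of NF-kappaB, Nfkbie, was higher by 0.97 and the chemokine Ccl9 by 1.07. The 5 calls stood in the untreated pair alone and in the RA pair alone, and 3 genes were called without the probe set kinds _s_at and _x_at. Il1rn, the interleukin 1 receptor antagonist, went the other way at -0.80 but had only 1 of 3 probe sets past the threshold, and was called lower in the fit of the 4 AML12 arrays alone, with median centring and in the RA pair alone. The acute phase regulator Socs3 stood at 0.00. Of the list's 10 members with a single tested probe set, 7 passed upwards and 0 downwards, where 583 and 476 of 6040 such genes did. The chemokine Cxcl5 was not among the 7 (adjusted p = 0.211, limma). It had 271 and 203 units at 3 h and 244 and 507 units at 24 h, so its pairs went opposite ways. The acute phase genes Saa3 and Orm1 stood at -0.61 and -0.32 and did not pass (adjusted p = 0.0518 and 0.168, limma). The acute phase genes Hp (0.38) and Lcn2 (0.33) passed upwards. Those that passed include the chemokine Ccl2, at 3370 and 3242 units at 3 h and 4811 and 4949 at 24 h, the adhesion receptor Icam1, at 770 and 633 and then 1464 and 1373, and the NF-kappaB subunit Relb, at 246 and 272 and then 505 and 548. These 3 were picked after their values were seen.

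The promoters of 4 of the 5 called inflammatory genes were in the table and are shown because NF-kappaB is known to bind kappa-B sites in them. Matches to the kappa-B consensus on either strand are in capitals, overlapping matches being merged.
Cxcl1, chr5:90891115-90891244, plus strand: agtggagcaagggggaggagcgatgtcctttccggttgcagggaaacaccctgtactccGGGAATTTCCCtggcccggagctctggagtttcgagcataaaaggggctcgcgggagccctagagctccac
Tnfaip3, chr10:19015411-19015540, minus strand: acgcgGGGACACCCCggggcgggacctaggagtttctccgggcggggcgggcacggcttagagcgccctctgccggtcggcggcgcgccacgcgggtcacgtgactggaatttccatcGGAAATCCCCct
Nfkbia, chr12:55492648-55492777, minus strand: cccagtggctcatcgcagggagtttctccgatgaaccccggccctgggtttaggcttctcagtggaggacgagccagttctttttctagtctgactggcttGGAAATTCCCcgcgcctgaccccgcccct
Nfkb2, chr19:46304607-46304736, plus strand: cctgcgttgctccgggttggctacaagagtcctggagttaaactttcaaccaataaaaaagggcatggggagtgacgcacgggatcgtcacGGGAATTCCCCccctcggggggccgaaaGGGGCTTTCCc
All 4 genes held a match within 250 bases before a start, in 6 of their 7 windows, since Tnfaip3 has 2 annotated starts and Nfkb2 has 3. A match was present in 9.09% of the windows of genes higher at 24 h, in 5.13% of those of lower genes and in 3.9% of all windows. The 4 genes shown, chosen for known sites, hold 6 of the 18 matching windows of the higher genes. Genes with several starts count more than once, and the shares were not compared by a test. No binding was measured here.

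Several genes of mature liver function rose. Otc, the urea cycle enzyme ornithine transcarbamylase, had 68.3 and 65.8 units at 3 h and 355 and 324 units at 24 h (probe set 1420525_a_at). Its arrays of 3 h lay under the pooled median of 73.5 units, taken here as the level below which signals are dim. Against that level the arrays of 24 h were at least 3.84-fold higher, and at least 3.4-fold on the other probe set. Both probe sets were bright enough to test only through the arrays of 24 h, so no p is given. In v-erbA cells Otc stayed dim, at 21.4 to 53.4 units on the same probe set.

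Cd36, a fatty acid transporter, had 207 and 214 units at 3 h and 699 and 472 units at 24 h (probe set 1423166_at), a difference of 1.37 ± 0.14 (SE, adjusted p = 0.00037, limma). Its probe sets were close, at 1.37 and 1.43. Fabp1, the liver fatty acid binding protein, had 1114 and 1209 units at 3 h and 4252 and 2456 units at 24 h (probe set 1417556_at), a difference of 1.46 ± 0.18 (SE, adjusted p = 0.000947, limma). The plasma proteins afamin (Afm), vitronectin (Vtn) and kininogen (Kng1), which the liver secretes, rose by 1.02, 0.98 and 0.89. Vtn had 1195 and 1165 units at 3 h and 3634 and 1512 units at 24 h (probe set 1420484_a_at), so its rise lay mostly in untreated cells. The calls of Vtn and Kng1 were lost without either untreated array, and that of Vtn also under quantile normalization, with other offsets and with 1 treatment term shared by both lines. Afp, a fetal plasma protein of the albumin family, fell by 0.58 as a mean of 4 probe sets, 3 of which passed. It had 173 and 156 units at 3 h and 104 and 104 units at 24 h (probe set 1416645_a_at). The call was lost without the _x_at probe sets, which hold 2 of the 4.

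The hepatocyte list of liver identity genes held 8 members with 2 or more probe sets, and 0 of them were called in either direction. Of its 21 members with a single tested probe set 5 passed upwards and 0 downwards, against 17.5% of such genes in either direction. Its median was 0.17 in the fit, 0.47 in the untreated pair and -0.01 in the RA pair. Apoa1, the apolipoprotein of HDL particles, had 2682 and 2264 units at 3 h and 7093 and 1823 units at 24 h (probe set 1419233_x_at), so that the untreated array of 24 h stood alone. Its 4 probe sets differed by 0.52 to 0.59, with adjusted p from 0.315 to 0.415 (limma). Albumin (Alb) had a single tested probe set near the upper end of the scale, at 9964 and 10016 units at 3 h and 11053 and 9860 units at 24 h. Its difference was 0.06 and did not pass.

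Of 7 fatty acid oxidation genes 2 were called higher, Ppara and Acot2, and 0 lower, where 3.25% and 3.98% of all genes were. Ppara, the nuclear receptor that drives this pathway, had 750 and 343 units at 3 h and 1219 and 606 units at 24 h (probe set 1439675_at). Its arrays overlapped between the times, with RA arrays lower at both, and the pairs differed by 0.69 and 0.79. Acot2, a mitochondrial acyl-CoA thioesterase, rose by 0.38. Of the list's 10 members with a single probe set 7 passed upwards and 0 downwards, where 583 and 476 of 6040 such genes did. Without either untreated array the list's median was 0.02, against 0.25 in the fit.

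Of 8 clock genes with 2 or more tested probe sets 1 was called higher, Dbp, and 0 lower, where 3.25% and 3.98% of all genes were, and the median was 0.29. Of 8 with a single tested probe set 4 passed upwards and 1 downwards, where 17.5% of such genes passed in either direction. The period gene Per1 (0.36), the cryptochrome Cry2 (0.45) and the repressor Bhlhe40 (0.36) passed upwards. Its relative Bhlhe41 had 37.8 and 49.6 units at 3 h, both dim, and 132 and 140 units at 24 h, at least 1.67-fold higher. Ciart, a repressor within the clock, had 149 and 159 units at 3 h. It had 48.0 and 24.1 units at 24 h, both dim, at least 1.86-fold lower. Bhlhe41 and Ciart were bright enough to test through 1 time alone, so no p is given for them. These 5 genes have no second tested probe set. Dbp, an output factor of the clock, had 83.6 and 73.2 units at 3 h and 156 and 173 units at 24 h (probe set 1438211_s_at), near the dim end of the scale. Its difference was 0.91 ± 0.16 (SE, adjusted p = 0.00773, limma). Nr1d2, a repressor within the clock, stood at 0.43 and Per2, a core clock repressor, at 0.26, with 1 of 2 and 0 of 3 probe sets past the threshold. The partner of Clock, Arntl, stood at -0.16 on its tested probe set, which did not pass, and Nr1d1 was too dim to test. In the v-erbA line the median of the list was 0.11. The Dbp call was lost without either untreated array and without the probe set kinds _s_at and _x_at, where the median was 0.17.

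Among growth signals and early response genes, Tgfbr1, the type I receptor of TGF-beta, fell most. It had 1106 and 745 units at 3 h and 639 and 301 units at 24 h (probe set 1420894_at). Each array of 24 h was below each of 3 h, and RA arrays were lower at both times. Its 3 probe sets differed by -0.72 to -1.17. Id2, an inhibitor of differentiation factors, fell by 0.31, and the TGF-beta and BMP list had 2 of 9 called lower, beside 3.98% of all genes. Of 10 immediate early genes, which answer growth factors within minutes, 3 were called higher and 1 lower, where 3.25% and 3.98% of all genes were. Those higher were Zfp36l1, a protein that destabilises mRNA, at 0.49, the AP-1 subunit Jun at 0.34 and the zinc finger factor Klf6 at 0.30. The stress gene Gadd45b was lower, at -0.39. In the fit of the 4 AML12 arrays alone 1 was called higher and 0 lower, and without a mean-variance trend 0 were called. Higher calls numbered 1 without the untreated array of 3 h or without either RA array, and the call of Gadd45b was lost without either RA array. Egr1, with a single tested probe set, had 1139 and 813 units at 3 h and 794 and 576 units at 24 h, and Fos was too dim to test. The YAP target Ccn2 stood at -0.02, and 0 of 11 genes of the YAP list were called.

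In the remaining lists 0 to 3 genes were called in a direction, beside 3.25% higher and 3.98% lower over all genes. Of 9 p53 targets 3 were called lower, the nuclease Aen (-0.60), the cyclin Ccng1 (-0.35) and the ubiquitin ligase Mdm2 (-0.29), while Cdkn1a stood at -0.16 and was not called. Without a mean-variance trend 1 was called. The median over the 9 was 0.06. Of the list's 8 members with a single tested probe set 3 passed upwards and 2 downwards, against 17.5% of such genes in either direction. Those higher were Bbc3 (0.51), Pmaip1 (0.45) and Fas (0.35), and those lower Plk2 (-0.31) and Phlda3 (-0.28). Of 12 collagen and matrix genes 3 were called higher, the basement membrane chains Col4a5 (0.53), Lama5 (0.45) and Col18a1 (0.24), and 1 in the fit of the 4 AML12 arrays alone, without a mean-variance trend or without the probe set kinds _s_at and _x_at. Nid1, also of the basement membrane, stood at -0.94 with 1 of 2 probe sets past the threshold and was not called. Of the list's 5 members with a single tested probe set 0 passed upwards and 2 downwards, against 17.5% of such genes in either direction. The 2 were the basement membrane chain Col4a2 (-0.77, adjusted p = 0.000736, limma) and Timp1 (-0.35). Of 12 Nrf2 and metallothionein genes, the glutathione transferase Gstm1 was called higher and sulfiredoxin (Srxn1, -0.43) and Pgd of the pentose phosphate pathway (-0.37) lower. The 4 probe sets of Gstm1 ranged from 0.16 to 2.27. Txnip, which binds thioredoxin and limits glucose uptake, was the only one of 16 glycolysis and hypoxia genes called, at 0.58. Of 12 cholesterol genes 1 was called, Hmgcs1 at 0.23, of 19 amino acid response genes 1, Mthfd2 at 0.42, of 7 interferon-stimulated genes 1, H2-K1 at 0.16, and of 11 cyclin D and cell cycle inhibitor genes 2, Rbl2 higher at 0.36 and Ccng1 lower. None was called among 16 genes of fatty acid synthesis, 11 ER chaperones, 14 lysosomal, 7 retinoid and 5 fibroblast genes with 2 or more tested probe sets.

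Other genes of large change belonged to no list. Anxa8, an annexin, had 435 and 355 units at 3 h and 166 and 102 units at 24 h (probe set 1417732_at), a difference of -1.46 ± 0.13 (SE, adjusted p = 0.000139, limma). Epha4, an ephrin receptor, fell by 1.13. Cybb, the catalytic subunit of the phagocyte NADPH oxidase, had 665 and 765 units at 3 h and 1185 and 1917 units at 24 h (probe set 1436778_at), and its 3 probe sets rose by 1.06 to 1.15. Plpp3, a lipid phosphatase, rose by 0.88. Rasgrp2, an activator of Rap, ranked lowest among the called genes, and its call was lost when dim probe sets were tested too. Its signals were 289 and 351 units at 3 h and 22.7 and 41.7 units at 24 h (probe set 1438932_at), where both arrays were dim, so that it was at least 3.62-fold lower at 24 h. Its probe sets bear consecutive identifiers, and whether they share target sequence was not tested.

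Genes of other cell types were mostly dim. All 10 hepatocyte markers measured lay above the pooled median on all 4 AML12 arrays, with summed signals of 47440 to 47979 units at 3 h and 49136 to 54338 at 24 h. Of 9 fibroblast markers 5 lay below it on all 4 arrays and 2, Vim and Postn, above it, and their sum, mostly Vim, was 6481 to 7072 units at 3 h and 7516 to 7823 at 24 h. Postn, a matrix protein, had 178 and 209 units at 3 h and 363 and 368 units at 24 h, and rose by 0.86 (adjusted p = 0.00165, limma). Dcn, a matrix proteoglycan, had 65.9 and 58.3 units at 3 h and 106 and 89.1 units at 24 h, at least 1.25-fold higher. It was bright enough to test only through the arrays of 24 h, so no p is given. The smooth muscle actin Acta2 had 21.2 and 46.2 units at 3 h and 103 and 121 units at 24 h on a probe set that was not tested, its mean being dim. The part of such cells in the time differences, those of matrix genes included, was not tested. Of 8 macrophage markers 5 lay below it on all 4 arrays, Ptprc, Cd68 and Tyrobp among them, and 2 above it, Cd14 and Csf1r. The macrophage sum, 3389 to 4319 units at 3 h and 4581 to 5497 at 24 h, was mostly Cd14, which rose by 0.45 (adjusted p = 0.000506, limma) beside the inflammatory genes. Its part in their rise was not tested. Csf1r went the other way, with 183 and 186 units at 3 h and 130 and 78.5 units at 24 h. Its difference was -0.75 (adjusted p = 0.0169, limma). The macrophage marker Adgre1 had 93 and 83.5 units at 3 h and 55.6 and 57 units at 24 h. Of 7 endothelial markers 6 lay below the median on all 4 arrays, and their sum was 253 to 256 units and 264 to 282 units. In bulk RNA a change in the number of dividing cells and a change in transcript per cell cannot be told apart.

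The largest time differences were found on single probe sets and were seldom followed by another probe set of the gene. Of 65 genes whose brightest probe set differed by at least 2-fold, 9 (13.8%) had another probe set past 2-fold on the same side, 34 had the others on the same side under 2-fold, 21 had some on the other side under 2-fold and 1 had another past 2-fold on the other side. Where the lines were compared at the same time in the same way, v-erbA against AML12, 50.4% of 115 genes at 3 h and 53.4% of 146 genes at 24 h had another probe set past 2-fold on the same side. Over all 4895 genes 56.5% had every tested probe set on 1 side for time, and 67.0% and 67.8% for line at the same 2 times. Of 165 probe sets past 4-fold, 147 differed by an amount within 1 log2 unit of it in the v-erbA line.

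Tmem158, a membrane protein, shows the extreme. Its probe set 1437750_at fell from 416 and 552 units at 3 h to 2.5 and 0.8 units at 24 h, while 1452652_at rose from 22.7 and 23.0 units to 393 and 306. The same reversal appeared in v-erbA cells, from 909 and 801 to 4.0 and 3.9 units and from 12.5 and 17.6 to 260 and 293. The collagen receptor Ddr1 had 7 tested probe sets, of which 1 differed by 2.33, 1 by -3.11 and the other 5 by -0.16 to 0.22. Shmt2, a mitochondrial enzyme of one-carbon metabolism, had 1 at 2.85, 1 at -1.42 and the others at 0.14. Tbkbp1 and Masp1 also held opposed probe sets that passed, as did 45 genes in all. The labels give no batch of arrays, and time and any such batch cannot be told apart.

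**Figure D3:**
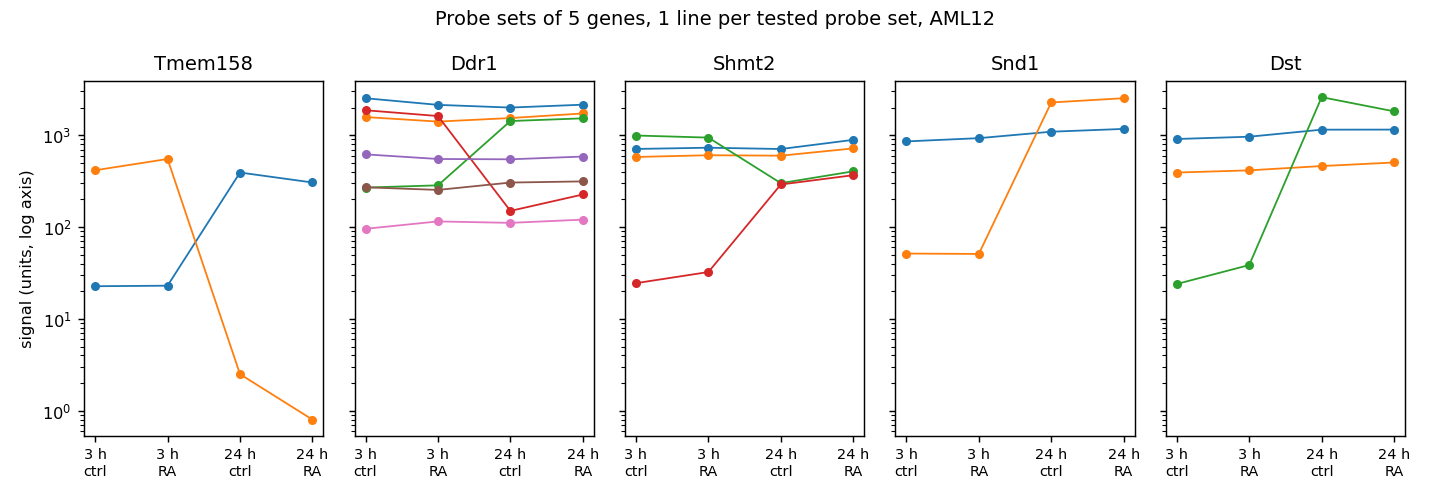
Signal (units, log axis) of each tested probe set of 5 genes on the 4 AML12 arrays. Tmem158, Ddr1 and Shmt2 have probe sets that move in opposite directions between 3 h and 24 h, and Snd1 and Dst have 1 probe set that rises by over 5 log2 units beside others that rise by about 0.3.

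The rule of agreeing probe sets admits genes whose probe sets agree in sign but not in size. Snd1, a nuclease-domain protein that binds RNA, ranked highest among the called genes with a mean of 2.71, but its brighter probe set went from 858 and 931 units to 1094 and 1173, a difference of 0.34, and the other from 51.5 and 51.0 units to 2277 and 2534. Dst, Atg4a, Zyg11b and Mfsd13a, also among the 12 highest, had ranges of 0.25 to 5.44, 0.53 to 2.94, 0.38 to 2.22 and 0.37 to 3.09. Ctps2, among the 12 lowest, ranged from -2.40 to -0.37. In all, 15 called genes had probe sets more than 1 log2 unit apart, 11 of them higher at 24 h. With these left out, 148 genes were higher and 191 lower.

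**Figure D4:**
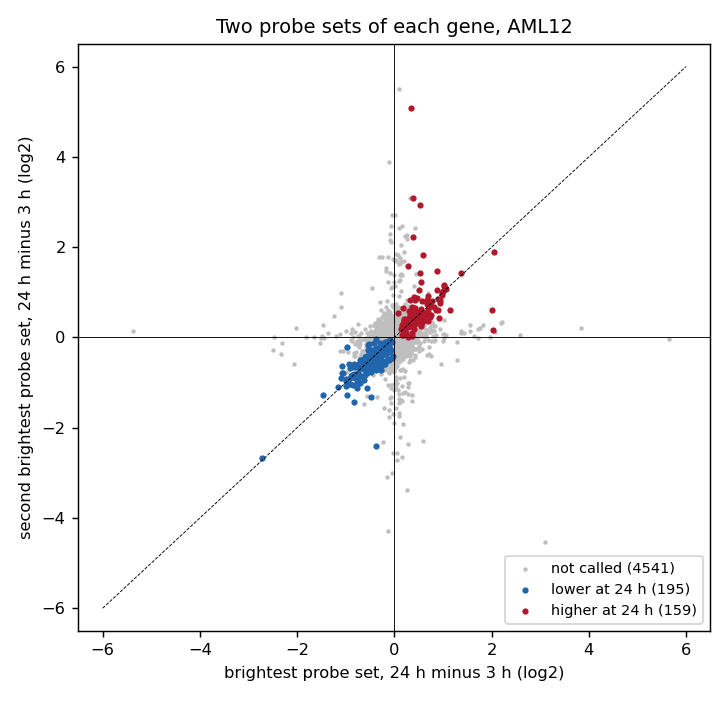
Difference of the second brightest probe set against that of the brightest for each gene with 2 or more tested probe sets, 24 h minus 3 h in AML12 (log2). Red and blue points are the 159 genes called higher and the 195 called lower, and grey points the 4541 not called. Called genes lie mostly along the dashed line of equality, and grey points along the axes have a large difference in 1 probe set only.

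Most called genes had the same sign in the v-erbA line, on arrays that did not enter the AML12 difference. Of the 354 called genes 339 (95.8%) had the same sign there, 154 of 159 higher and 185 of 195 lower, against 3683 of all 4895 genes (75.2%). The called genes had larger differences than all genes, and the shares were not compared at equal size. Both lines have the same times, so a shared sign cannot tell time apart from a batch of arrays linked to it. The median difference of the lower genes was -0.43 in AML12 and -0.29 in the v-erbA line, and that of the higher genes 0.43 and 0.32. The v-erbA arrays did enter the estimate of the spread behind the calls, and in the fit of the 4 AML12 arrays alone 264 genes were called, 247 of them among the 354. Across the 4895 genes Pearson's r between the lines was 0.87, as a description, since genes are not independent. The line by time term passed for 0 genes on 2 or more probe sets (limma, 0% of 4895), for 12 of 19169 probe sets (0.0626%) and at an unadjusted p under 0.05 for 1310 (6.83%). The difference of Cd36 was 1.40 in AML12 and 0.36 in the v-erbA line, with adjusted p of 0.162 and 0.327 for the contrast between lines on its 2 probe sets. For Otc no contrast is given, since its v-erbA arrays and its AML12 arrays of 3 h were dim. A p above the threshold does not show that the lines were alike.

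**Figure D5:**
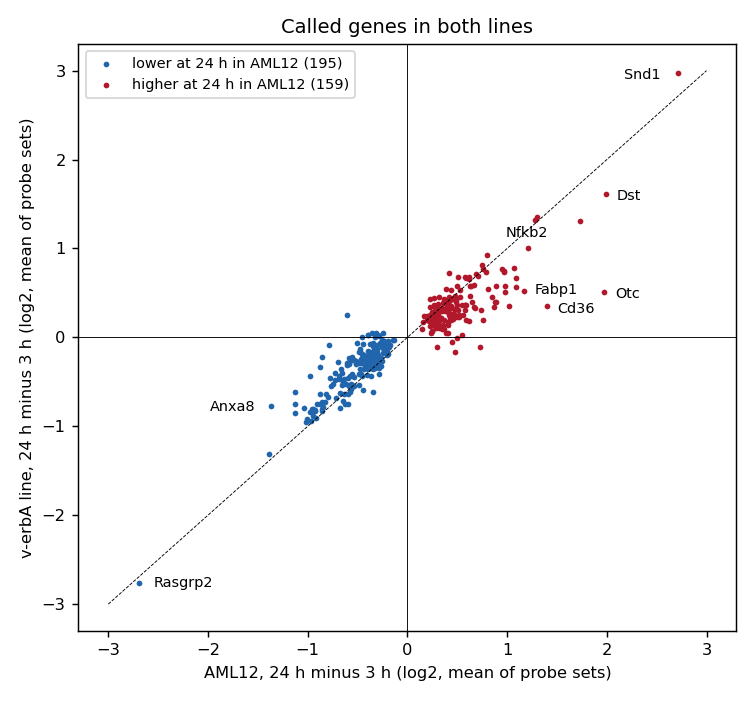
Mean time difference of each of the 354 called genes in the v-erbA line against that in AML12 (log2, 24 h minus 3 h). The dashed line marks equality. The sign is the same in both lines for 339 genes, and Otc, Cd36 and Fabp1 lie below the line of equality.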

How the data were processed

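Per the labels, total RNA (Trizol, then an RNeasy column) was biotin-labelled for Affymetrix arrays. The deposited values are linear intensities per probe set and array. How the authors summarised and scaled them is not given in the sources used here. Array medians were 71.2 to 76.1 units, and this scaling was kept. Of 45037 probe sets 1 lacked values, 34944 named 1 gene through the platform annotation, 932 named several and 9160 none. Gene identifiers of 34740 were found in RefSeq (GRCm38.p6).

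A probe set was tested if its mean over the 4 AML12 arrays exceeded the pooled median of 73.5 units. limma 3.58.1 in R 4.3.3 fitted line, time, treatment, line by time and line by treatment over all 8 arrays (2 residual degrees of freedom, mean-variance trend). The p-values measure only how these arrays vary, and that variation may be technical. Where all arrays of the dimmer time lay under the pooled median, a fold is a bound against it. Such a probe set was bright enough to test only through the other time, and no p is given for it.

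The comparison, the 25 gene lists and the alternatives were chosen with earlier results of these data known. Named genes are the 12 highest and 12 lowest called genes with 1 direction in both pairs, up to 4 per list by size, the 5 genes with the largest opposed probe sets, 5 line by time differences, and a short group of liver, clock and growth genes. Called list members outside this rule, and the genes ranked by smallest probe set change, were added after values were seen. Scripts were tested on simulated data. Plots used matplotlib 3.10.9.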

Additional observations from a re-analysis of the deposited data

Results flagged for a closer look

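By limma's line by time test 12 probe sets passed, 6 of them in genes with 2 or more tested probe sets. The 5 such genes with the smallest p are described here, and no other tested probe set of these genes passed that test. The v-erbA minus AML12 difference was 3.00 for Tmed3 (1441846_x_at), -4.12 for Opa3 (1443563_at), 2.39 for Lztr1 (1445461_at), -2.36 for Cd8a (1451673_at) and 3.62 for Kcna6 (1456954_at). In AML12 the Opa3 probe set went from 9.2 and 0.2 units at 3 h to 413 and 524 at 24 h. In v-erbA cells it stayed at 1.1 to 10.2 units. The brightness filter used the AML12 arrays alone. A probe set could thus pass through 1 time alone, as those of Opa3 and Cd8a did through 24 h. No p is therefore given for these 5 genes. The Cd8a probe set went from 38.6 and 28.4 units to 2707 and 2578 in AML12 and from 38.2 and 45.4 to 610 and 555 in v-erbA cells, while the second Cd8a probe set stayed between 118 and 152 units on all 8 arrays.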

How the results depend on the processing

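The counts of 159 higher and 195 lower genes were within 1.5 times under most settings. They were 70 and 69 without a mean-variance trend, and 311 and 353 where the brightest probe set had to pass and the others only to share its sign. Without the _s_at and _x_at probe sets 126 were lower. Leaving out 1 AML12 array at a time gave 122 to 247 higher and 135 to 338 lower genes, with the counts above 1.5 times the reported ones without the RA array of 3 h (247 and 334) or of 24 h (246 and 338), which leaves the untreated pair. The 4 AML12 arrays alone gave 107 and 157. Centring each array on its median gave 137 higher and 251 lower, so that 35.3% of calls were higher, against 44.9%. The line by time count of 0 became 2 with median centring, 1 with the offset at the median and 8 to 28 with 1 array left out, where 1 residual degree of freedom remained. Genes with all probe sets on 1 side numbered 2635 to 2805 with 1 array left out. Of 81 named genes that passed, 27 did so under all 16 alternatives, and none of these genes reversed under them. Besides the genes given above, the calls of Aurkb, Bub1b, Smc4, Mki67, Mcm4, Mcm5, Mcm6, Prim1, Rrm1, Nop56, Ncl, Nhp2, Nolc1, Dkc1, Txnip, Zfp36l1, Rbl2, Mdm2, Col4a5, Col18a1, H2-K1, Dst and Mfsd13a were lost without either untreated array, that of Jun without the untreated array of 3 h, those of Acot2, Gadd45b, Hmgcs1, Id2, Jun, Klf6, Lama5 and Mthfd2 without either RA array, and that of H2-K1 also without the RA array of 24 h. When dim probe sets were tested too, the calls of Rasgrp2, Snd1, Ska1, Nek2, Srxn1, Ctps2, Rrm1, Klf6 and Mdm2 were among those lost. The fit pairs 24 h with 3 h by treatment within each line, and the labels give no replicate numbers that could serve as a further block.

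The number of arrays limits the precision, and dim probe sets have no detection call here.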
